A study of Mus musculus with 11 samples.

Results

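Collagens and the glycoproteins that assemble with them form the scaffold that supports the gut wall, and 40 genes for such proteins were followed here, of 29809 named genes in the deposited matrix. The genes were listed by name and fall into these roles: 6 fibrillar collagens, 12 basement membrane genes, 4 type VI collagen chains, 5 other collagens, 4 provisional matrix genes, 3 crosslinking enzymes, 4 elastic fibre genes and 2 leucine-rich proteoglycans. All 40 were found in the matrix. Single cells of the mouse colonic mucosa, stripped of the outer muscle layers, digested with enzymes and cleared of dying cells, had been counted by 3' droplet sequencing. The libraries that could be matched to a sample held 55603 cells of 11 groups, with 1 library a group.

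In 9 groups, wild-type mice of about 2 months had been given 3% dextran sulfate sodium (DSS, a detergent-like sugar polymer that wounds the colonic epithelium) for 6 days and were dissected on 1 of 9 days between day 6 and day 23, counted from its start. The Il10-/- group came from untreated mice of about 10 months that lack the anti-inflammatory cytokine interleukin 10 and had developed colitis. The uninjured group came from untreated wild-type mice of about 2 months, so Il10-/- and uninjured libraries differ in age as well as genotype. Each library pooled the tissue of 3 mice (days 7, 11 and 18, the libraries of batch C, run fresh) or of 8 mice (uninjured, Il10-/- and DSS days 6, 9, 12, 16, 19 and 23, frozen first), per the authors' cell table. Storage, batch and number of mice therefore cannot be told apart.

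Fibrillar collagens of types I, III and V make the cables of the connective tissue, while type IV collagens, laminins, nidogen and perlecan make the thin sheet under epithelium, around muscle cells and around vessels. After a wound, fibroblasts lay down a provisional matrix of fibronectin, tenascin C and periostin, into which collagen is deposited and then crosslinked by lysyl oxidases. In the gut, most of these proteins come from fibroblasts, with vessels and their surrounding muscle cells adding their own basement membrane.

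Values below are CPM (counts per 1000000): the unique molecular identifier (UMI) counts of a gene, each standing for 1 captured RNA molecule, divided by all counts of the same cell type in the same library. A CPM is a share, so it can move because other genes of that cell type move. Levels are compared mainly within a gene, and sums over several genes follow the most abundant of them. The libraries held 7922350 to 24785337 counts without a batch label and 79011976 to 87012379 counts in batch C. Adamdec1/Bmp4 fibroblasts numbered 64 to 1065 cells a library, Pi16/Pcolce2 fibroblasts 166 to 918, smooth muscle cells and pericytes 20 to 246, blood endothelial cells 27 to 491 and lymphatic endothelial cells 15 to 317. Of 54976 distinct cell barcodes, 611 occurred in more than 1 library.

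The stretches of DNA just upstream of 4 collagen genes are shown because these genes are among those whose level was higher after DSS in more than 1 cell type or, for Col7a1, that had 0 counts in uninjured fibroblasts. Each is the 120 bases that end 1 base before the annotated gene start, from RefSeq on GRCm38.p6 (mm10), written 5′ to 3′ on the gene's own strand. Col3a1 (type III collagen) lies at chr1:45311418-45311537 on the plus strand, Col5a1 (a type V chain) at chr2:27886305-27886424 on the plus strand, Col5a3 (another type V chain) at chr9:20815068-20815187 on the minus strand, and Col7a1 (type VII collagen, the anchoring fibril under epithelium) at chr9:108953466-108953585 on the plus strand. No annotated exon overlaps these stretches. Capitals mark GGGCGG, the GC box letters, on either strand (read as CCGCCC on the minus strand).
Col3a1: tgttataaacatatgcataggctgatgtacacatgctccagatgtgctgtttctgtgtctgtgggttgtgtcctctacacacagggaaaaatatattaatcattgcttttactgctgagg
Col5a1: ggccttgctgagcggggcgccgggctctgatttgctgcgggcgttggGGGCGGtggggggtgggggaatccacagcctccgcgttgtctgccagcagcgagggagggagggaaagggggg
Col5a3: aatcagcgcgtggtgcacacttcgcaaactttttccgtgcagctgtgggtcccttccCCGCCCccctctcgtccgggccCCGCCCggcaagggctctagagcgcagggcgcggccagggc
Col7a1: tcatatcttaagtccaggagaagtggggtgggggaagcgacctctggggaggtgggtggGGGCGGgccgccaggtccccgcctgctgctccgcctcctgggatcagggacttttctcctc

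The Col3a1 stretch held 0 such motifs, Col5a1 and Col7a1 held 1 each and Col5a3 held 2. Over 250 upstream bases, 22 of 33 windows of the matrix genes held GGGCGG on either strand, against 32.7% of 32851 windows of all genes. These windows cover 28 of the 40 genes. The match is of letters only and says nothing of a bound factor. Several members are neighbours in the genome. Col4a1 (chr8:11198423-11312826, minus strand) and Col4a2 (chr8:11312805-11449287, plus strand) start head to head with overlapping starts. Col4a5 and Col4a6 lie head to head on the X chromosome, Col3a1 and Col5a2 are neighbours on chromosome 1, and Col6a1 and Col6a2 on chromosome 10.

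The matrix genes were read mainly from fibroblasts. Cells the authors named Adamdec1/Bmp4 fibroblasts carried Adamdec1, and those named Pi16/Pcolce2 fibroblasts carried Pi16 and Pcolce2. Both carried the fibroblast genes Pdgfra, Dcn and Dpt. Bmp4 was not among the markers read. The cells they named myofibroblasts carried Acta2, Myh11 and Rgs5, so they are called smooth muscle cells and pericytes here, and for short mural cells. Among them, the Apold1 cells carried Rgs5 and Notch3, and those without a subtype name carried Acta2 and Myh11 beside the fibroblast genes Dcn, Dpt and Adamdec1. The make-up of the mural cells differed between the libraries: Apold1 cells were 26.4% (day 18) to 55.2% (day 16) of them over the DSS libraries, against 26.9% in the uninjured one. Cells without a subtype name were 33.3% (day 6) to 70.7% (day 18), against 65.4% when uninjured. The remaining mural cells were in neither subset, and on day 6 the Apold1 cells were 30.0%. Pooled over libraries, Kit was 43.0 CPM in mural cells and 0 in each of these 2 subsets. Its counts thus lay in the remaining cells, which the name smooth muscle cells and pericytes may not cover. The summed level of Kit and Ano1, markers of interstitial cells, in mural cells was 559 CPM on day 6, 75.3 on day 7 and 82.5 on day 11, against 243 when uninjured. The part of this make-up in the mural results was not tested. Dcn was also high in the Apold1 cells (2894 CPM pooled over libraries, against 14969 in Pi16/Pcolce2 fibroblasts). Between 83.4% (Fn1) and 97.4% (Loxl1) of all counts of a member lay in fibroblasts, mural cells and blood or lymphatic endothelium. Fn1 (fibronectin) had a further 13.7% of its counts in monocytes and macrophages.

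Within the stroma the members divided by cell type. Pi16/Pcolce2 fibroblasts held 86.7% of the counts of Col8a1, 86.5% of Col14a1, 76.8% of Lum and 68.2% of Col1a1. Adamdec1/Bmp4 fibroblasts held 75.7% of the counts of Col4a6, 73.9% of Col7a1, 69.7% of Col18a1, 68.7% of Col4a5, 65.1% of Tnc and 62.8% of Col12a1. Blood endothelial cells held 36.2% of Col15a1, 21.0% of Col4a2, 17.6% of Col4a1 and 17.0% of Hspg2, and mural cells held 26.7% of Col6a4. These shares also follow the number of cells of each type that were captured.

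**Figure D1:**
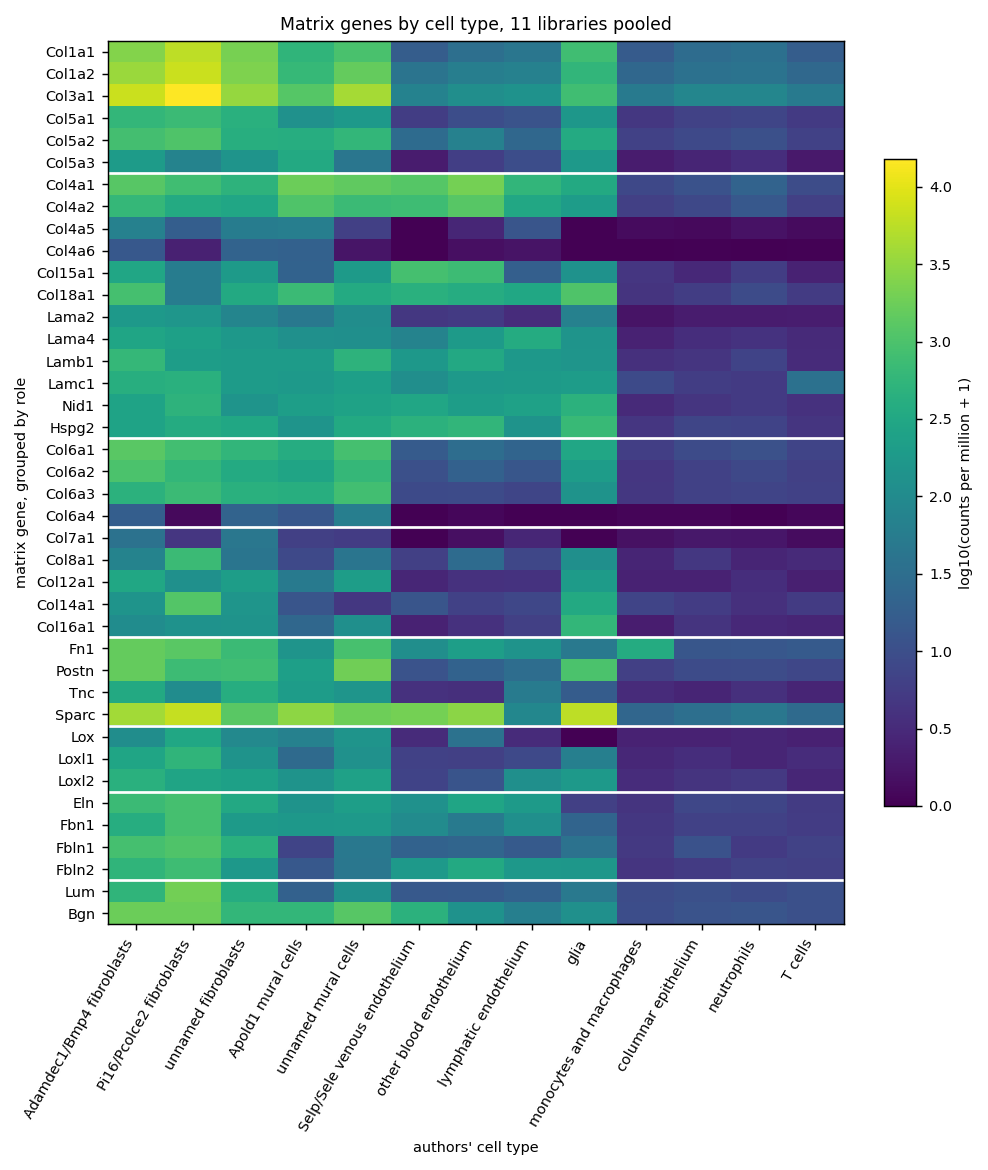
Level of each of the 40 matrix genes (rows, grouped by role with white lines between roles) in 13 cell types (columns), as log10 of CPM plus 1, with the counts of the 11 libraries added together so that larger libraries weigh more. Rows are to be read across: Col1a1, Col1a2 and Col3a1 are highest in both named fibroblast types, Col4a1, Col4a2 and Col15a1 are also high in blood endothelium, and neutrophils and T cells are low, with Col3a1 the highest of the 40 genes in both.

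The level in cells that should lack a gene was taken as a guide to RNA from other cells. In neutrophils, which should lack collagens, the 40 genes together made up 0.0275 to 0.143% of counts over the 9 DSS libraries, against 4.50 to 8.73% in Pi16/Pcolce2 fibroblasts. The highest share was on day 23, when basement membrane genes summed to 532 CPM in neutrophils, against 27.3 to 194 on the other days. Whether free RNA or misassigned cells gave these counts was not tested. On day 9, Col3a1 had a UMI in 207 of 1575 neutrophils (13.1%, median 2079 UMIs a cell) and in 230 of 234 Pi16/Pcolce2 fibroblasts (98.3%, median 4736.5 UMIs a cell). In blood endothelium on the same day, Col3a1 had a UMI in 15.2% of 33 cells (median 3190 UMIs), beside the neutrophil share above.

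The summed share of the 40 genes was highest between days 11 and 12 in both named fibroblast types and in mural cells. In Pi16/Pcolce2 fibroblasts the members made up 3.39% when uninjured, then 5.39 at day 6, 4.56 at day 7, 6.51 at day 9, 8.73 at day 11, 7.21 at day 12, 5.84 at day 16, 6.78 at day 18, 4.87 at day 19 and 4.50 at day 23. In Adamdec1/Bmp4 fibroblasts they made up 3.05% when uninjured, then 2.97 at day 6, 2.85 at day 7, 3.25 at day 9, 4.75 at day 11, 5.39 at day 12, 4.27 at day 16, 4.57 at day 18, 4.16 at day 19 and 3.78 at day 23. All 9 DSS libraries lay above uninjured in Pi16/Pcolce2 fibroblasts. In Adamdec1/Bmp4 fibroblasts 7 of 9 did, and days 6 and 7 lay just under it. In mural cells the share was 0.766% when uninjured, then 0.984 at day 6, 1.52 at day 7, 1.49 at day 9, 2.56 at day 11, 2.29 at day 12, 1.15 at day 16, 1.95 at day 18, 1.36 at day 19 and 0.942 at day 23. The Il10-/- library had 3.32% in Pi16/Pcolce2 fibroblasts, 2.86% in Adamdec1/Bmp4 fibroblasts and 1.02% in mural cells, which for both fibroblast types is just under uninjured.

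The design has 1 library a group, so a single day cannot be tested against uninjured. What could be tested over samples was a trend with day over the 9 DSS libraries, with the batch label as a term, on counts summed per library and cell type (edgeR quasi-likelihood test, Benjamini-Hochberg adjusted p over all genes of that type, called under 0.05). Slopes are log2 change per 10 days with their SE. The p-values measure the spread between libraries that each pool several mice. A further test asked for curvature, by adding the square of the day, and another for a difference of slope between cell types.

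In Adamdec1/Bmp4 fibroblasts 10 of 40 members were called for a day trend, 7 higher and 3 lower on later days, where 6.26% of all 7985 genes tested were called. In Pi16/Pcolce2 fibroblasts 3 of 37 were called, all lower on later days, against 2.56% of 8945 genes. Over all fibroblasts together 4 of 40 were called, against 4.65% of 10290 genes. The Adamdec1/Bmp4 share of all fibroblasts ranged between 18.8% (day 12) and 52.4% (day 7), against 20.9% when uninjured, and its part in the slopes over all fibroblasts, and in differences from them, was not tested. By edgeR, 0 of 29 were called in fibroblasts without a subtype name (1.26% of all genes; 2 members had an unadjusted p under 0.05). In mural cells 0 of 32 were called, as were 0 of all 2735 genes (0%), where 186 genes, 2 of them members, had an unadjusted p under 0.05. DESeq2 also called 0 members in both. In all blood endothelium 1 of 17 was called (1.3% of all genes), and in the part of it not named Selp/Sele venous 1 of 16 (2.45%). The median slope of the tested members was 0.24 in Adamdec1/Bmp4 fibroblasts and 0.04 in Pi16/Pcolce2 fibroblasts, beside 0.01 and -0.0039 over all genes tested in those types.

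These counts differed when single libraries were left out. The share of all genes called in those fits is not given, so the moves need not be particular to the members. The Adamdec1/Bmp4 count was 4 when the day 6 or the day 18 library was left out, and the count over all fibroblasts was 1 without day 18, 2 without day 6, 2 without day 19, 12 without day 7 and 7 without day 23. The Pi16/Pcolce2 count was 1 without day 6, 9, 12, 16, 18, 19 or 23, 5 without day 11 and 9 without day 7. Col18a1, Loxl1 and Col14a1 in Adamdec1/Bmp4 fibroblasts, and Col4a1 in Pi16/Pcolce2 fibroblasts, were called under each of the alternative settings that were run.

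**Figure D2:**
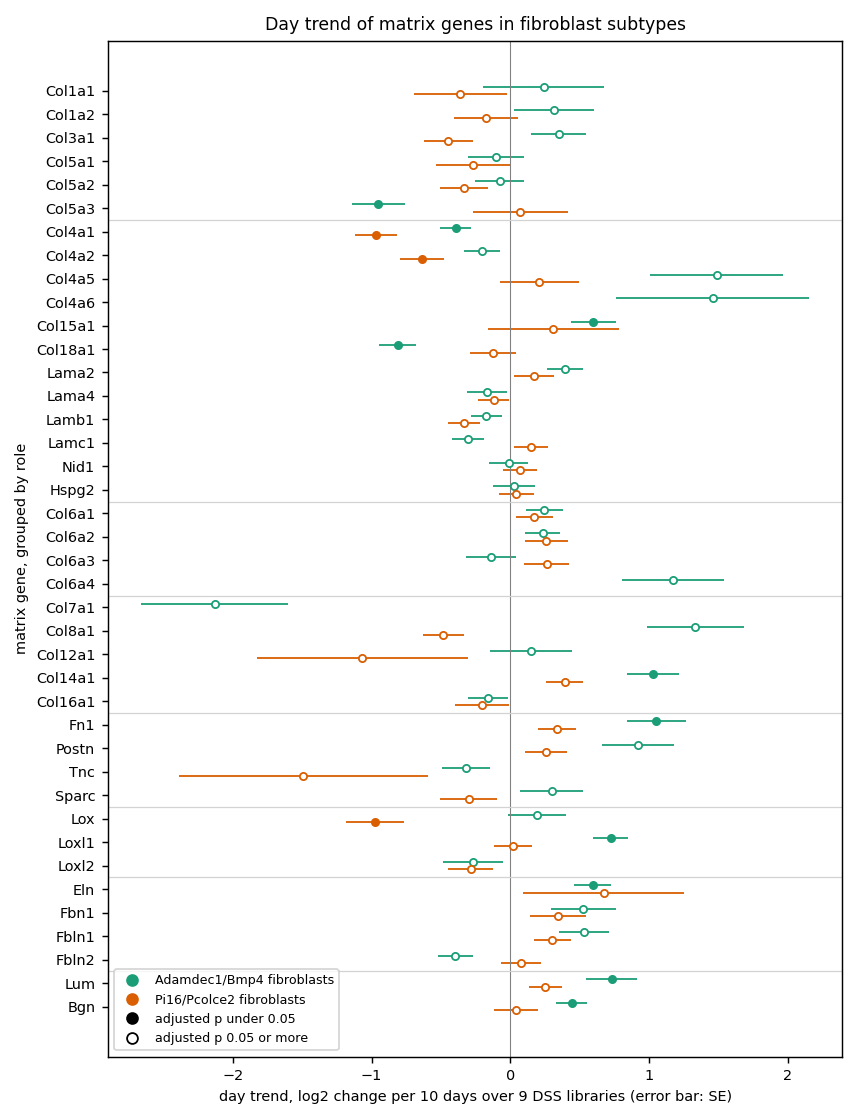
Day trend of each matrix gene over the 9 DSS libraries in Adamdec1/Bmp4 fibroblasts (green) and Pi16/Pcolce2 fibroblasts (orange), as log2 change per 10 days with its SE, filled where the adjusted p was under 0.05. The 10 filled green points include 7 to the right of 0 (Fn1 and Col14a1 among them) and the 3 filled orange points, Col4a1, Col4a2 and Lox, lie to the left.

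With the squared day in the model, no member passed the adjusted threshold in Adamdec1/Bmp4 fibroblasts (0.107% of all genes did), Pi16/Pcolce2 fibroblasts (0.0534%), all fibroblasts (0.0281%), mural cells (0%) or blood endothelium (0.0254%). At an unadjusted p under 0.05 there were 22 of 40 members in Adamdec1/Bmp4 fibroblasts (7.35% of all genes), 17 of 37 in Pi16/Pcolce2 fibroblasts (7.18%), 16 of 40 in all fibroblasts (7.63%), 20 of 33 in mural cells (7.24%) and 8 of 18 in blood endothelium (5.64%). The median curve coefficient of the members tested was -0.74, -0.53, -0.54, -1.16 and -0.61 in that order of types, beside -0.03, -0.0057, -0.01, -0.05 and -0.03 over all genes tested. A negative coefficient means a fitted course that bends downwards, and its maximum can lie early, late or between. DESeq2 called 0 members in both named fibroblast types, 2 in all fibroblasts, 1 in mural cells and 1 in blood endothelium, and without a filter on low counts edgeR called 6 in mural cells, 4 in Adamdec1/Bmp4 and 1 in Pi16/Pcolce2 fibroblasts.

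Of the fibrillar collagens, Col1a1, Col1a2, Col3a1, Col5a1 and Col5a2 were highest on day 11 or 12 in both named fibroblast types, without passing the adjusted test for curvature, and Col5a3 was highest on other days. Col3a1, the chain of type III collagen, in Pi16/Pcolce2 fibroblasts was 5426 CPM when uninjured, then 14951 at day 6, 14820 at day 7, 18736 at day 9, 27258 at day 11, 18524 at day 12, 13387 at day 16, 17333 at day 18, 11224 at day 19 and 10220 at day 23. In Adamdec1/Bmp4 fibroblasts it was 5067 CPM when uninjured, then 4616 at day 6, 5215 at day 7, 6299 at day 9, 9916 at day 11, 10389 at day 12, 7513 at day 16, 9029 at day 18, 7834 at day 19 and 7222 at day 23. Pi16/Pcolce2 values were above uninjured on each of the 9 days, with the highest at day 11, while the Adamdec1/Bmp4 value on day 6 lay under uninjured. The ratio of day 11 to uninjured in Pi16/Pcolce2 fibroblasts was 5.02 (95% interval 4.94 to 5.11), an interval that, like the others given here, covers counting error only.

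Col1a1, a chain of type I collagen, followed the same course. In Pi16/Pcolce2 fibroblasts it was 2473 CPM when uninjured, then 5518 at day 6, 4175 at day 7, 7970.2 at day 9, 12584 at day 11, 8834 at day 12, 6016 at day 16, 7484 at day 18, 5253 at day 19 and 3779.5 at day 23. Among Adamdec1/Bmp4 fibroblasts it was 1887 CPM when uninjured, then 1744 at day 6, 1624 at day 7, 2318 at day 9, 4452 at day 11, 5775 at day 12, 3204 at day 16, 3229 at day 18, 2927 at day 19 and 2466 at day 23. Pi16/Pcolce2 fibroblasts had every DSS value above uninjured, and in Adamdec1/Bmp4 fibroblasts days 6 and 7 were under it. The ratio to uninjured at the highest day was 5.09 (95% interval 4.96 to 5.22) in Pi16/Pcolce2 fibroblasts on day 11 and 3.06 (95% interval 2.84 to 3.30) in Adamdec1/Bmp4 fibroblasts on day 12. The curve coefficient of Col1a2, the partner chain, was -1.23 ± 0.28 in Adamdec1/Bmp4 fibroblasts (edgeR adjusted p = 0.12) and -1.14 ± 0.31 in Pi16/Pcolce2 fibroblasts (adjusted p = 0.299).

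Type V collagen, which nucleates type I fibrils, differed by chain. Col5a1 and Col5a2 were above uninjured on all 9 DSS days in both fibroblast types, with 523 to 1296 CPM of Col5a1 over the DSS days in Pi16/Pcolce2 fibroblasts, against 354 in the uninjured library. Col5a3 in Adamdec1/Bmp4 fibroblasts was 53.8 CPM when uninjured, then 299 at day 6, 199 at day 7, 265 at day 9, 290.3 at day 11, 184 at day 12, 95 at day 16, 182 at day 18, 96.5 at day 19 and 83.6 at day 23. It was highest on day 6 and nearest to uninjured at the end, and it fell by 0.95 ± 0.19 log2 per 10 days (edgeR adjusted p = 0.00733), a call that was lost when day 6 was left out. In Pi16/Pcolce2 fibroblasts Col5a3 had 36.7 to 142 CPM over the DSS days, against 69.0 in the uninjured library, with values on both sides of it.

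In mural cells Col1a1, Col1a2, Col3a1, Col5a1 and Col5a2 had lower levels than in either named fibroblast type and were highest on day 11, while Col5a3 was 39.3 to 254 CPM over the DSS days, highest on day 9, against 0 uninjured. Col3a1 there was 1094 CPM when uninjured, then 1145 at day 6, 2279 at day 7, 1956 at day 9, 4456 at day 11, 2857 at day 12, 1359 at day 16, 3218 at day 18, 2118 at day 19 and 1387 at day 23. Col5a2 was 112 CPM when uninjured, then 320.5 at day 6, 392 at day 7, 391 at day 9, 759 at day 11, 720.4 at day 12, 332 at day 16, 547 at day 18, 400.0 at day 19 and 202 at day 23. Both were above uninjured on all 9 days, and the ratio at day 11 was 4.08 (95% interval 3.39 to 4.94) for Col3a1 and 6.76 (95% interval 3.85 to 13.2) for Col5a2, whose uninjured value rests on 12 counts. The fibroblast marker sum (6 genes, of which Col1a1 and Lum are members) in mural cells also differed between days: it was 1491 to 6202 CPM over the DSS libraries, highest on day 11, against 2356 CPM when uninjured. The part of carried-over or misassigned fibroblast RNA in the mural values was not tested.

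**Figure D3:**
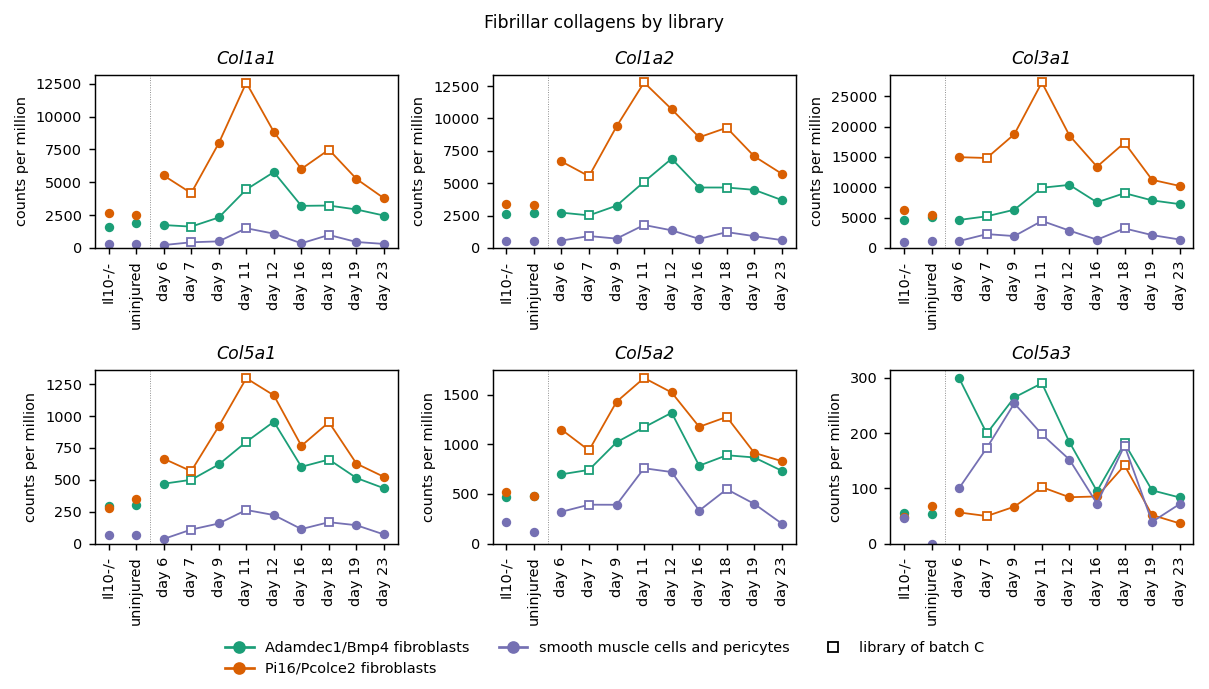
CPM of the 6 fibrillar collagen genes in Adamdec1/Bmp4 fibroblasts (green), Pi16/Pcolce2 fibroblasts (orange) and smooth muscle cells and pericytes (purple) for each library, 1 point a library, with Il10-/- and uninjured at the left and the 9 DSS days joined by lines at the right (days are spaced evenly, not to scale). Open squares are libraries of batch C. Col1a1, Col1a2, Col3a1, Col5a1 and Col5a2 are highest on day 11 or 12 in all 3 cell types, and Col5a3 is highest on day 6 in Adamdec1/Bmp4 fibroblasts.

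Among basement membrane genes, the type IV chains Col4a1 and Col4a2 were above uninjured in all 9 DSS libraries in both named fibroblast types, mural cells and blood endothelium. Col4a1, a chain of the network-forming type IV collagen, was 240.5 CPM when uninjured, then 1172 at day 6, 906 at day 7, 1130.4 at day 9, 1265 at day 11, 1032 at day 12, 640.2 at day 16, 674 at day 18, 483 at day 19 and 419 at day 23 in Pi16/Pcolce2 fibroblasts. It fell by 0.97 ± 0.15 log2 per 10 days (edgeR adjusted p = 0.00182), and its partner Col4a2 fell by 0.64 ± 0.16 (adjusted p = 0.0406), a call lost under 9 of 16 other settings. For both chains all 9 DSS values lay above uninjured and the last was the lowest of them. Among Adamdec1/Bmp4 fibroblasts Col4a1 was 448 CPM when uninjured, then 1253 at day 6, 1403 at day 7, 1043 at day 9, 1349.9 at day 11, 1242 at day 12, 889 at day 16, 1095 at day 18, 979.6 at day 19 and 692 at day 23. Its slope there was -0.39 ± 0.11 (adjusted p = 0.0466), a call lost under 11 of 16 other settings, and that of Col4a2 was -0.20 ± 0.13 (adjusted p = 0.447).

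No such fall was called in blood endothelium. Col4a1 there was 409 CPM when uninjured, then 1094 at day 6, 1619 at day 7, 1521 at day 9, 2183 at day 11, 1667 at day 12, 1252 at day 16, 2276 at day 18, 1205 at day 19 and 1194 at day 23. Its slope was -0.01 ± 0.17 log2 per 10 days (adjusted p = 1), and the slope difference to all fibroblasts was 0.70 ± 0.18 (adjusted p = 0.0287). All DSS values were more than 2 times the uninjured one, with day 11 and day 18, both of batch C, the highest. That difference was not called without day 6, 7, 18, 19 or 23, without the batch term, with stricter cell filters, or in the 6 DSS libraries with no batch label.

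Col18a1, whose C-terminal fragment is endostatin, was counted mainly in Adamdec1/Bmp4 fibroblasts. Among these it was 159.8 CPM when uninjured, then 1117 at day 6, 1136 at day 7, 906 at day 9, 973 at day 11, 962 at day 12, 604 at day 16, 454 at day 18, 609.8 at day 19 and 495 at day 23. It was highest on days 6 and 7, at 7.11 (95% interval 5.83 to 8.76) times the uninjured level on day 7, and it fell by 0.81 ± 0.13 log2 per 10 days (edgeR adjusted p = 0.00151). The share of Adamdec1/Bmp4 cells with a Col18a1 UMI was 80.7% of 145 cells on day 9, against 43.8% of 162 uninjured cells, with median depths of 4167 and 3655 UMIs. The share was 0.698% of 1575 neutrophils on day 9 at a median of 2079 UMIs.

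In blood endothelium Col18a1 was 29.9 CPM when uninjured, then 347 at day 6, 422 at day 7, 511 at day 9, 544 at day 11, 477 at day 12, 408 at day 16, 301 at day 18, 171 at day 19 and 118 at day 23. All 9 DSS values were above the uninjured one, which rests on 3 counts, and the ratio on day 11 was 18.2 (95% interval 6.21 to 88.4). In the blood endothelial cells outside the venous subset it fell by 1.09 ± 0.26 log2 per 10 days (edgeR adjusted p = 0.0281), a call lost under 8 of 15 other settings. In lymphatic endothelium Col18a1 was 731 CPM when uninjured, then 191 at day 6, 178 at day 7, 175 at day 9, 347 at day 11, 339.5 at day 12, 425 at day 16, 577 at day 18, 664 at day 19 and 319 at day 23. Every DSS library had less than the uninjured one, the ratio on day 7 being 0.244 (95% interval 0.193 to 0.311). Only 6 DSS libraries held 20 or more lymphatic cells, so no trend was tested. Among Pi16/Pcolce2 fibroblasts Col18a1 was 40.7 to 83.2 CPM over the DSS days, against 39.8 in the uninjured library.

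Col15a1, a related collagen of vascular and muscle basement membranes, was 119.6 CPM when uninjured, then 787 at day 6, 646 at day 7, 1297 at day 9, 996 at day 11, 1178 at day 12, 1292 at day 16, 779 at day 18, 937 at day 19 and 631 at day 23 in blood endothelium. All DSS values were above the uninjured one, which rests on 12 counts, and the ratio on day 9 was 10.8 (95% interval 6.07 to 21.3). Among Adamdec1/Bmp4 fibroblasts it was 399.6 CPM when uninjured, then 224 at day 6, 211 at day 7, 269.8 at day 9, 355 at day 11, 361 at day 12, 505 at day 16, 398 at day 18, 474 at day 19 and 361 at day 23. There the values of days 6, 7 and 9 were the lowest and it rose by 0.60 ± 0.16 log2 per 10 days (edgeR adjusted p = 0.0337), with days 16 and 19 alone above uninjured. The call was lost under 7 of 16 other settings. The slope in endothelium minus that in all fibroblasts was -0.90 ± 0.19 (adjusted p = 0.00255), which was not called without the batch term.

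The laminins and their linkers were not called for a trend. Lamb1, the laminin beta 1 chain, was 39.9 CPM when uninjured, then 254 at day 6, 286 at day 7, 153 at day 9, 340.2 at day 11, 223 at day 12, 159 at day 16, 301 at day 18, 186 at day 19 and 212 at day 23 in blood endothelium. All DSS values were above the uninjured one, which rests on 4 counts. Nid1 (nidogen 1, which links laminin to type IV collagen) was 214 to 342 CPM over the DSS days in Adamdec1/Bmp4 fibroblasts, against 147 uninjured, and 374 to 667 in Pi16/Pcolce2 fibroblasts, against 693 uninjured. It was above uninjured on every day in Adamdec1/Bmp4 fibroblasts and below it on every day in Pi16/Pcolce2 fibroblasts. None of Lama2, Lama4, Lamb1, Lamc1, Nid1 and Hspg2 was called for a day trend in a cell type where it was tested.

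The minor type IV chains Col4a5 and Col4a6 were mainly in Adamdec1/Bmp4 fibroblasts. Col4a5 was 68.5 CPM when uninjured, then 32.0 at day 6, 29.3 at day 7, 29.5 at day 9, 48.8 at day 11, 68.5 at day 12, 139 at day 16, 184 at day 18, 75.8 at day 19 and 60.1 at day 23. It was lowest on days 6 to 9 and highest on day 18, and its slope was 1.49 ± 0.48 (adjusted p = 0.146). In mural cells it was 23.1 to 54.9 CPM over the DSS days, against 18.7 uninjured, and its slope there minus that in all fibroblasts was -1.75 ± 0.37 (adjusted p = 0.00661), which was not called by DESeq2, without the batch term, in the 6 libraries with no batch label, without the highest-UMI cells or without day 7 or day 18.

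**Figure D4:**
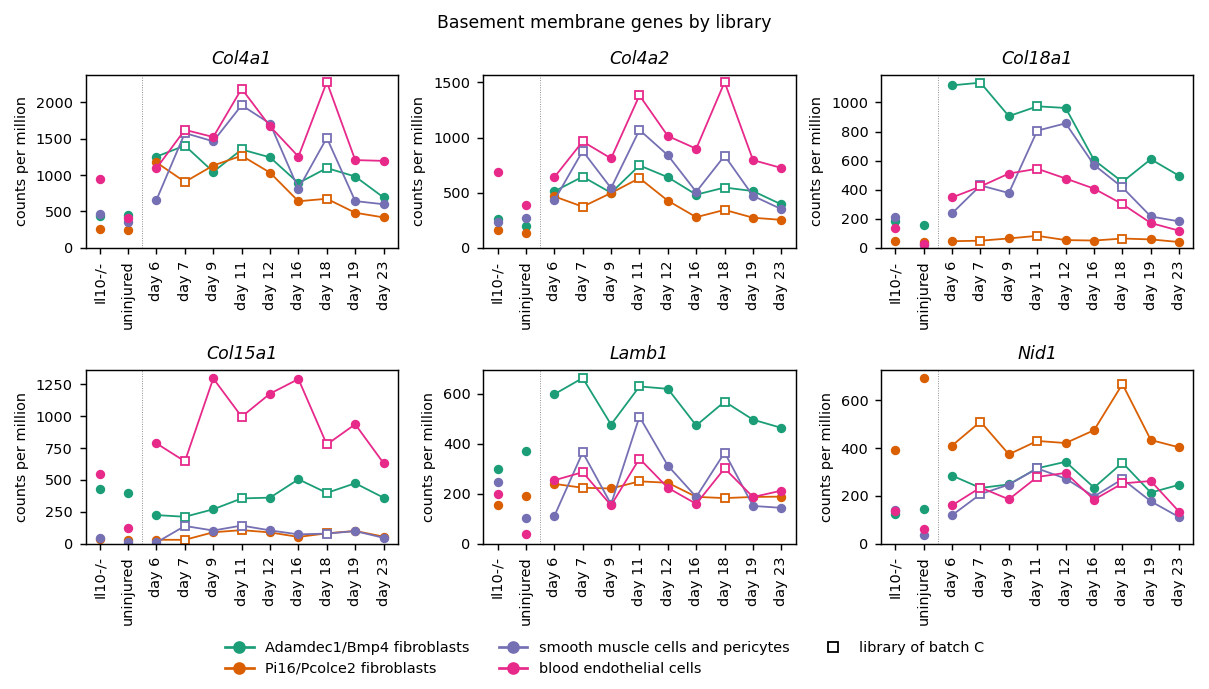
CPM of 6 basement membrane genes in Adamdec1/Bmp4 fibroblasts (green), Pi16/Pcolce2 fibroblasts (orange), smooth muscle cells and pericytes (purple) and blood endothelial cells (pink) for each library, laid out as in the plot of fibrillar collagens. Col4a1 declines over the DSS days in Pi16/Pcolce2 fibroblasts but not in endothelium, and Col18a1 is at 906 CPM or more on days 6 to 12 in Adamdec1/Bmp4 fibroblasts, against 159.8 CPM in the uninjured library.

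Type VI collagen forms beaded filaments around cells, and Col6a1 and Col6a2 lay on both sides of the uninjured level in Adamdec1/Bmp4 fibroblasts. Col6a1 was 727 to 1709 CPM over the DSS days in Adamdec1/Bmp4 fibroblasts, against 1088 uninjured, and Col6a2 was 829 to 1269.6, against 908. Col6a3 in Adamdec1/Bmp4 fibroblasts was 281 CPM when uninjured, then 722 at day 6, 360.0 at day 7, 628 at day 9, 683 at day 11, 890.4 at day 12, 529.6 at day 16, 613 at day 18, 542 at day 19 and 484 at day 23. In mural cells Col6a3 was 84.1 CPM when uninjured, then 256 at day 6, 589 at day 7, 789 at day 9, 891 at day 11, 928 at day 12, 249 at day 16, 639 at day 18, 393 at day 19 and 274 at day 23. All 9 DSS values exceeded uninjured in both types, as did those of Col6a1 and Col6a2 in mural cells, and the mural ratio of Col6a3 on day 12 was 11.0 (95% interval 5.62 to 24.7) from 9 uninjured counts. In Pi16/Pcolce2 fibroblasts Col6a3 was 471 to 1176 CPM over the DSS days, against 727 uninjured, with day 7 alone below it. Col6a4, a little-counted chain, rose by 1.25 ± 0.31 log2 per 10 days over all fibroblasts (edgeR adjusted p = 0.0354) at 1.35 to 20.7 CPM, and the call was lost under 9 of 16 other settings. Adamdec1/Bmp4 fibroblasts held 66.2% of the counts of Col6a4 and Pi16/Pcolce2 fibroblasts 1.30%, and within Adamdec1/Bmp4 fibroblasts its slope was 1.17 ± 0.37 (adjusted p = 0.08).

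Of the other collagens, Col7a1 had 0 counts in uninjured fibroblasts of either named type. Col7a1, the anchoring fibril collagen that ties epithelial basement membrane to the stroma, had 0 counts in 162 uninjured Adamdec1/Bmp4 fibroblasts and was 0 CPM when uninjured, then 64.1 at day 6, 42.3 at day 7, 100.2 at day 9, 53.9 at day 11, 112 at day 12, 18.2 at day 16, 12.1 at day 18, 6.89 at day 19 and 8.80 at day 23. It was highest from days 6 to 12, and 22.9-fold higher on day 12 when the uninjured 0 was set to a floor of 3 counts. Its slope was -2.13 ± 0.53 (adjusted p = 0.0627), and on day 9 it had a UMI in 13.1% of 145 Adamdec1/Bmp4 fibroblasts (median 4167 UMIs), against 0 of 162 uninjured ones (upper 95% limit 2.25%, median 3655 UMIs). The share was 0.317% of 1575 neutrophils on that day.

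Col14a1, a collagen on the surface of fibrils, was 323 CPM when uninjured, then 107 at day 6, 75.7 at day 7, 86.1 at day 9, 133 at day 11, 168 at day 12, 245 at day 16, 256 at day 18, 226 at day 19 and 199 at day 23 in Adamdec1/Bmp4 fibroblasts. All 9 DSS values were below the uninjured one, with day 7 the lowest at 0.234 (95% interval 0.201 to 0.274) of it, and the level rose by 1.03 ± 0.19 log2 per 10 days (edgeR adjusted p = 0.00391). Among Pi16/Pcolce2 fibroblasts it was 788 to 1947 CPM over the DSS days, against 1448 uninjured, with values on both sides. The Pi16 marker sum (Pi16, Pcolce2, Dpp4 and Cd34) in Adamdec1/Bmp4 fibroblasts was 128 to 387 CPM over the DSS days, against 493 uninjured, and the part of that movement in the Col14a1 values was not tested. Col8a1, a short-chain collagen, was 114 CPM when uninjured, then 28.5 at day 6, 25.6 at day 7, 47.5 at day 9, 89.9 at day 11, 43.6 at day 12, 84.9 at day 16, 176 at day 18, 70.1 at day 19 and 74.8 at day 23 in Adamdec1/Bmp4 fibroblasts. Among Pi16/Pcolce2 fibroblasts it had 499 to 1101 CPM over the DSS days, highest on day 6, against 541 uninjured. The slope in Adamdec1/Bmp4 minus that in Pi16/Pcolce2 fibroblasts was 1.69 ± 0.20 (edgeR adjusted p = 0.000474).

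Of the provisional matrix genes, Fn1 and Postn were highest on day 18 in both named fibroblast types. Fn1, fibronectin, was 1334 CPM when uninjured, then 993 at day 6, 959 at day 7, 873 at day 9, 1798 at day 11, 2422 at day 12, 2547 at day 16, 2762 at day 18, 2703 at day 19 and 2529 at day 23 in Adamdec1/Bmp4 fibroblasts. Days 6, 7 and 9 were below uninjured and days 11 to 23 above it, and the rise was 1.05 ± 0.21 log2 per 10 days (edgeR adjusted p = 0.0157), a call lost without day 6, 7 or 18 or in the 6 libraries with no batch label. Among Pi16/Pcolce2 fibroblasts Fn1 was 973 CPM when uninjured, then 1002 at day 6, 1098 at day 7, 929 at day 9, 1414 at day 11, 1467 at day 12, 1539.8 at day 16, 1997 at day 18, 1298 at day 19 and 1333 at day 23. Its slope there was 0.33 ± 0.14 (adjusted p = 0.228), and the slope in Adamdec1/Bmp4 minus that in Pi16/Pcolce2 fibroblasts was 0.71 ± 0.12 (adjusted p = 0.00382). In blood endothelium Fn1 was 359 CPM when uninjured, then 173 at day 6, 195 at day 7, 128 at day 9, 187 at day 11, 254 at day 12, 129 at day 16, 199 at day 18, 40.3 at day 19 and 88.8 at day 23. All of the DSS values there were under uninjured. The slope in endothelium minus that in all fibroblasts was -1.29 ± 0.25 (edgeR adjusted p = 0.00158), which was not called by DESeq2 or with stricter cell filters. Selp/Sele venous cells were 13.2% (day 23) to 33.3% (day 6) of blood endothelium over the DSS libraries, against 9.30% when uninjured. Pooled over libraries, Fn1 was 117 CPM in venous and 217 CPM in other blood endothelial cells. The part of this make-up in the endothelial results was not tested.

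Postn, periostin, was 1998 CPM when uninjured, then 961 at day 6, 818 at day 7, 947 at day 9, 2086 at day 11, 2500 at day 12, 2254 at day 16, 2607 at day 18, 2069 at day 19 and 2369 at day 23 in Adamdec1/Bmp4 fibroblasts. Days 6, 7 and 9 lay below the uninjured level and the later ones above it, and the slope was 0.92 ± 0.26 (adjusted p = 0.0797). Over all fibroblasts it rose by 0.77 ± 0.17 (edgeR adjusted p = 0.0235), a call lost without day 6, 9, 18 or 19 or without the batch term. Sparc, a collagen-binding glycoprotein, was 2772 to 6364 CPM over the DSS days in Adamdec1/Bmp4 fibroblasts, against 3758 uninjured, and 2041 to 3014 in blood endothelium, against 1276 uninjured.

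Tnc, tenascin C, is known for its brief appearance in wounds. Among Pi16/Pcolce2 fibroblasts it was 18.1 CPM when uninjured, then 596 at day 6, 16.4 at day 7, 321 at day 9, 199.8 at day 11, 413 at day 12, 261 at day 16, 9.32 at day 18, 88.6 at day 19 and 137 at day 23. Days 7 and 18, both of batch C, stood under the uninjured level, while day 6 was 33 (95% interval 24.7 to 45.0) times it. The batch C coefficient of Tnc in Adamdec1/Bmp4 fibroblasts was -1.22 ± 0.21 log2 (edgeR adjusted p = 0.00158), and Col16a1 (-0.74 ± 0.16) and Hspg2 (-0.55 ± 0.17) were also lower in batch C, while Eln was higher (0.78 ± 0.15). In the trend model 4 of 40 members were called for batch in Adamdec1/Bmp4 fibroblasts (8.97% of all genes) and 4 of 37 in Pi16/Pcolce2 fibroblasts (12.6%). No course of Tnc over the days is read from these values.

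**Figure D5:**
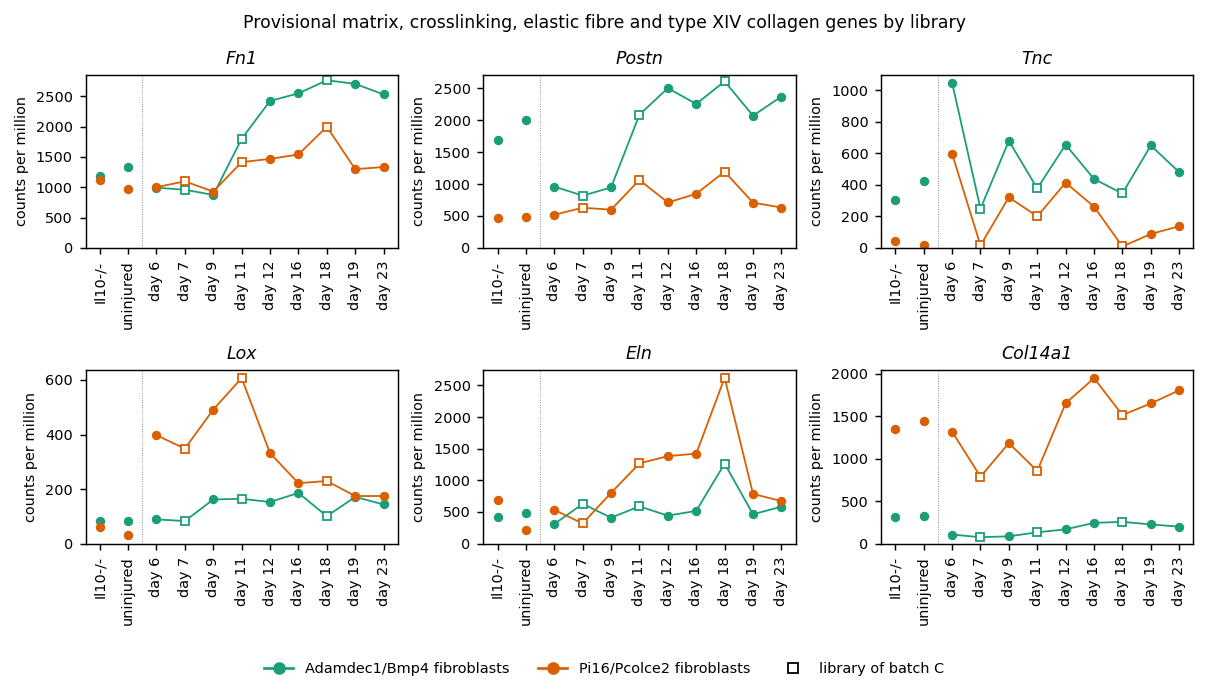
CPM of Fn1, Postn, Tnc, Lox, Eln and Col14a1 in Adamdec1/Bmp4 fibroblasts (green) and Pi16/Pcolce2 fibroblasts (orange) for each library, laid out as in the plot of fibrillar collagens, with open squares for batch C. Fn1 is higher from day 11 on in Adamdec1/Bmp4 fibroblasts, Lox is highest on day 11 in Pi16/Pcolce2 fibroblasts, and Tnc is low on days 7 and 18, both in batch C.

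Of the crosslinking enzymes, Lox and Loxl1 differed in slope between the fibroblast types. Lox, lysyl oxidase, was 32.1 CPM when uninjured, then 398 at day 6, 348 at day 7, 492 at day 9, 607 at day 11, 332 at day 12, 222 at day 16, 229.7 at day 18, 174 at day 19 and 175 at day 23 in Pi16/Pcolce2 fibroblasts. Every DSS value was above the uninjured one, the ratio on day 11 was 18.9 (95% interval 15.3 to 23.7), and the level fell by 0.98 ± 0.21 log2 per 10 days (edgeR adjusted p = 0.0345), a call lost under 8 of 16 other settings. Among Adamdec1/Bmp4 fibroblasts Lox was 82.7 to 186 CPM over the DSS days, against 81.5 uninjured, and the slope difference between the types was 1.16 ± 0.16 (adjusted p = 0.000588).

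Loxl1, the paralog that acts on elastic fibres, was 352 CPM when uninjured, then 192 at day 6, 196 at day 7, 236 at day 9, 286 at day 11, 274 at day 12, 311 at day 16, 458 at day 18, 396 at day 19 and 359 at day 23 in Adamdec1/Bmp4 fibroblasts. It was below uninjured through day 16 and rose by 0.72 ± 0.13 log2 per 10 days (adjusted p = 0.00244). Loxl2 was above uninjured on all 9 days in Adamdec1/Bmp4 fibroblasts, at 331 to 732 CPM against 214, and was highest on day 12.

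Elastin, the core of elastic fibres, was highest on day 18 in both named fibroblast types. Eln was 209.5 CPM when uninjured, then 534 at day 6, 318 at day 7, 801 at day 9, 1268 at day 11, 1382 at day 12, 1422 at day 16, 2619 at day 18, 785 at day 19 and 672 at day 23 in Pi16/Pcolce2 fibroblasts. All DSS values were above uninjured and day 18 was 12.5 (95% interval 11.5 to 13.6) times it, while days 16 and 19, of the other batch, stood at 1422 and 785 CPM. Within Adamdec1/Bmp4 fibroblasts Eln was 481 CPM when uninjured, then 309.6 at day 6, 628 at day 7, 409.8 at day 9, 588 at day 11, 442 at day 12, 517 at day 16, 1264 at day 18, 464 at day 19 and 583 at day 23. It rose by 0.59 ± 0.13 log2 per 10 days (adjusted p = 0.0121), a call lost without day 6 or day 18, without the batch term, and within the 6 libraries with no batch label. Fbn1, which forms the microfibrils, had a slope in mural cells minus all fibroblasts of -0.97 ± 0.23 (adjusted p = 0.0235), a call lost under 7 of 15 other settings. Fbln1, fibulin 1, was below uninjured on all 9 days in both fibroblast types, at 528 to 1436 CPM against 1624 in Adamdec1/Bmp4 fibroblasts and 679 to 1303 against 1307 in Pi16/Pcolce2 fibroblasts.

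The leucine-rich proteoglycans, which regulate fibril width, were low early in Adamdec1/Bmp4 fibroblasts. Lum, lumican, was 1204 CPM when uninjured, then 480.4 at day 6, 292 at day 7, 366 at day 9, 593 at day 11, 707 at day 12, 912 at day 16, 831 at day 18, 703 at day 19 and 755 at day 23 there. All 9 values were below the uninjured one, day 7 being 0.243 (95% interval 0.225 to 0.263) of it, and it rose by 0.73 ± 0.18 log2 per 10 days (edgeR adjusted p = 0.0291), a call lost under 7 of 16 other settings. Bgn, biglycan, was 1304 to 2304 CPM over the DSS days against 2299.6 uninjured, and rose by 0.44 ± 0.11 (adjusted p = 0.0226), also lost under 7 of 16. Within Pi16/Pcolce2 fibroblasts Lum was instead above uninjured on all 9 days, at 1689 to 2788 CPM against 1356, and highest on day 23.

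Adamdec1/Bmp4 and Pi16/Pcolce2 fibroblasts differed in slope for 7 of 40 members, where 0.597% of 10218 genes were called. The slope was higher in Adamdec1/Bmp4 fibroblasts for all 7: beside Fn1, Lox and Col8a1 these were Col3a1 (0.78 ± 0.10), Postn (0.68 ± 0.14), Loxl1 (0.67 ± 0.13) and Sparc (0.57 ± 0.11). The edgeR adjusted p-values were 0.000474, 0.027, 0.00946 and 0.00774. The difference of Postn was lost under 9 of 16 other settings, and those of Col3a1, Fn1 and Lox were called under all 16. That of Col8a1 was lost without the batch term, that of Sparc without day 6 and that of Loxl1 without day 23. The count was 13 without day 11.

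Against all fibroblasts, mural cells differed for 2 of 40 members (0.211% of 11384 genes were called) and blood endothelium for 7 (1.09% of 11305). Of the endothelial 7, Col6a2 (-4.11 ± 0.62), Fbln1 (-3.75 ± 0.66), Col14a1 (-2.94 ± 0.66) and Col6a3 (-2.22 ± 0.59) had 0 to 3 counts in most endothelial libraries and the most on day 7, so their fitted slopes depend on the prior count and are no bounds. The fibroblast marker sum in endothelium was also highest on day 7, at 428 CPM. Its part in these slopes was not tested. The mural count was 1 without day 7, 9, 18 or 23 and 4 without day 6 or day 11, and the endothelial one was 4 without day 18, 11 without day 23 and 14 without day 11. Between Adamdec1/Bmp4 fibroblasts and those without a subtype name 0 of 40 members differed by edgeR (0.0665% of 6018 genes were called), 4 had an unadjusted p under 0.05 and DESeq2 called 0. In all blood endothelium Col3a1 fell by 1.39 ± 0.28 log2 per 10 days (edgeR adjusted p = 0.0185) at 29.8 to 173 CPM, against 38.4 to 171 CPM in neutrophils. On day 7 it was 142 CPM in endothelium, against 69.7 in neutrophils of the same library. The call was lost without day 7 or day 18.

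Set against the single uninjured library, members lay above it in all 9 DSS libraries for 14 of 40 in Adamdec1/Bmp4 fibroblasts (12.7% of 13314 genes), 14 of 39 in Pi16/Pcolce2 fibroblasts (14.2% of 13044), 15 of 40 over all fibroblasts (16.9%), 21 of 40 in mural cells (10.2%) and 8 of 36 in blood endothelium (13.3%). Members below it in all 9 were 3 (11.2% of all genes), 2 (14%), 2 (12.2%), 2 (12.9%) and 8 (14.3%) in the same order of types. Col4a1, Col4a2, Col5a2, Col18a1 and Lox were above it in both named fibroblast types and in mural cells. Col4a1, Col4a2, Col18a1, Lamb1, Nid1 and Sparc were above it in mural cells and endothelium. All of these comparisons share the 1 uninjured library, in which mural cells numbered 26, and how far they rest on that library was not tested. The 8 endothelial members below it were Bgn, Col12a1, Col14a1, Col16a1, Fbln2, Fn1, Lox and Lum. Of these, Col12a1 and Col16a1 had 1 uninjured count each, Lum had 2, Col14a1 had 3 and Lox had 7.

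Members were also compared between the Il10-/- and the uninjured library, beside the share of all genes that differed. Taking members that reached 20 counts in either library and differed by 2-fold or more, 0 of 37 differed in Adamdec1/Bmp4 fibroblasts (7.22% of 5430 genes did), 4 of 37 in Pi16/Pcolce2 fibroblasts (6.94% of 9140), 2 of 37 over all fibroblasts (6.72% of 9887), 1 of 14 in mural cells (13.6% of 822) and 7 of 12 in blood endothelium (14.3% of 1326). With 1 library a group there is no test. Within Pi16/Pcolce2 fibroblasts Eln was 688 CPM in Il10-/- and 209.5 CPM in uninjured libraries, a ratio of 3.29 (95% interval 3.00 to 3.61). Tnc was 45.4 CPM in Il10-/- and 18.1 CPM in uninjured, a ratio of 2.51 (95% interval 1.81 to 3.54). Col6a3 was lower, at 328 CPM in Il10-/- against 727 CPM in uninjured, a ratio of 0.451 (95% interval 0.419 to 0.486), and so was Col4a5 at a ratio of 0.327 (95% interval 0.184 to 0.561). In mural cells Lamb1 had a ratio of 2.39 (95% interval 1.10 to 5.48), from 21 Il10-/- and 11 uninjured counts. It reached 20 counts in the Il10-/- library only.

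Of the 12 members tested in blood endothelium, 5 were at least 2-fold higher in the Il10-/- library, where 11.8% of 1326 genes were. All 5 were basement membrane genes. Of these, Col15a1, Col18a1, Lamb1 and Nid1 reached 20 counts in the Il10-/- library only, with 12, 3, 4 and 6 uninjured counts. They thus entered the comparison through the library in which they were higher. Col15a1 was 549.6 CPM in Il10-/- and 119.6 CPM in uninjured, a ratio of 4.59 (95% interval 2.52 to 9.19). Col4a1 had a ratio of 2.31 (95% interval 1.64 to 3.34), Col18a1 4.59 (95% interval 1.40 to 23.8), Lamb1 4.96 (95% interval 1.78 to 19.2), and Nid1 was 137 CPM in Il10-/- and 59.8 CPM in uninjured. Lama4 was 98.9 CPM in Il10-/- and 179 CPM in uninjured, and Lamc1 was 93.4 CPM in Il10-/- and 129.6 CPM in uninjured. Neither reached 20 counts in a library, so they were not among the members tested. Fn1 and Fbln2 (fibulin 2) were lower, with ratios of 0.214 (95% interval 0.107 to 0.407) and 0.357 (95% interval 0.238 to 0.529). Fn1 had 20 counts or more in the uninjured library only. The neutrophil marker sum (4 genes) in these cells was 20473 CPM in Il10-/- and 9.97 CPM in uninjured; the part of other cells' RNA in these ratios was not tested.

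Against the range of the 9 DSS libraries, Il10-/- values were below it for 15 of 40 members in Adamdec1/Bmp4 fibroblasts (11.1% of 13356 genes), 17 of 39 in Pi16/Pcolce2 fibroblasts (13.1% of 13101), 15 of 40 in mural cells (10.2% of 10817) and 4 of 36 in blood endothelium (9.09% of 11359). They were above it for 3 (8.24%), 1 (11.8%), 2 (14.7%) and 5 (9.38%) in the same order. Col4a1, Col4a2, Col5a1 and Col5a2 in both fibroblast types were below the DSS range, and Fbln1 was above it in both.

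The other genes of the pathway were 20 that process collagen in the secretory pathway or outside the cell, 15 matrix receptors and 7 small proteoglycans. Of all genes tested, 6.26% were called for a day trend in Adamdec1/Bmp4 and 2.56% in Pi16/Pcolce2 fibroblasts. Of the processing genes 1 fell with day in each of Adamdec1/Bmp4 (1 of 19 tested) and Pi16/Pcolce2 fibroblasts (1 of 20): P4hb, a subunit of the collagen prolyl hydroxylase, by 0.40 ± 0.12 and 0.55 ± 0.13 log2 per 10 days (edgeR adjusted p = 0.0489 and 0.0295). Beside those shares, a single call is not read as a result about collagen processing. Of 13 receptors tested in each type, 4 fell and 1 rose in Adamdec1/Bmp4 fibroblasts and 2 fell in Pi16/Pcolce2 fibroblasts. Itga5, the fibronectin receptor chain, fell by 1.39 ± 0.17 and 0.75 ± 0.15, and the syndecan Sdc4 by 0.85 ± 0.12 and 0.59 ± 0.12. Sdc1 fell by 1.47 ± 0.19 in Adamdec1/Bmp4 fibroblasts, where Fn1 rose. Of 5 small proteoglycans tested, Aspn and Prelp rose in Adamdec1/Bmp4 fibroblasts by 2.20 ± 0.37 and 1.19 ± 0.21, and Aspn in Pi16/Pcolce2 fibroblasts by 0.63 ± 0.13.

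Counts of other cells' markers differed between days in the fibroblast libraries too. The neutrophil marker sum in Adamdec1/Bmp4 fibroblasts was 170.0 to 5939 CPM over the DSS libraries, highest on day 7, against 8.15 uninjured, and the plasma cell sum (3 genes) was 14.8 to 3772, lowest on day 7 and highest on day 16, against 739 uninjured. The mural marker sum (7 genes) there was 129 to 1536, against 267. Within Pi16/Pcolce2 fibroblasts the sum of the 4 Pi16 markers was 699 to 2649 CPM over the DSS days, below the uninjured 3062 on each. Glia and mesothelial markers were at or near 0 in Adamdec1/Bmp4 fibroblasts (at most 8.99 and 0.846 CPM over the DSS days). The part of these differences in the matrix gene results was not tested.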

How the data were processed

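The deposited matrix holds unique molecular identifier counts for each gene in each cell. The authors made these counts with Cell Ranger 3.0.0 on mm10, per the submitters' processing notes. Pooling, storage and batch are given per the labels' protocols and the deposited cell table. Of 14 libraries with 68224 cells in the matrix, 11 with 55603 cells matched a sample, and 3 with 12621 cells were not used here. Of 30406 rows, 597 were placeholders that name no gene (0.517% of counts) and were left out, which leaves 29809 genes. Cell types are the authors' deposited annotation. No doublet caller was run, and an alternative left out the 5% of cells with the most counts. The members and the lists of other genes were chosen with earlier results of these data known.

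Counts were summed per library and cell type, keeping libraries with at least 20 cells of that type and fitting only where 7 or more of the 9 DSS libraries remained. edgeR 4.0.16 in R 4.3.3 (TMM scaling, its default filter on low counts, robust quasi-likelihood fit) tested the day, per 10 days and centred on day 14, with the batch label as a term. The curve is the coefficient of the squared day, and differences between cell types are the interaction of type and day with the library as a block. Adjusted p-values are Benjamini-Hochberg over all genes of a fit, called under 0.05. The fits were first tested on simulated data. DESeq2 1.42.0 was an alternative. Tables and figures were made with Python 3.11.15, pandas 2.3.3, numpy 2.4.6, scipy 1.17.1 and matplotlib 3.10.9. Ratios to the uninjured library carry exact 95% intervals, which cover counting error only, and a gene at 0 was set to a floor of 3 counts per library.

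All 40 members could be named by role. Values in every library were given mainly for members called in a fit and for the most abundant members of a role, and those of the other genes of the pathway for the 3 with the largest slopes among those called. Day curves and counts within each named fibroblast type and the slope difference between them were added after the data had been seen. A further alternative for mural cells is not reported here.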

Additional observations from a re-analysis of the deposited data

Results flagged for a closer look

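In 16 cases, over 15 members, the day slope of a member differed between cell types by a test of the difference itself (edgeR quasi-likelihood interaction, 9 DSS libraries, called at an adjusted p under 0.05). Values are differences of log2 slope per 10 days.

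Adamdec1/Bmp4 minus Pi16/Pcolce2 fibroblasts gave 0.78 for Col3a1, 0.71 for Fn1, 0.685 for Postn, 0.67 for Loxl1, 0.57 for Sparc, 1.69 for Col8a1 and 1.16 for Lox. Mural cells minus all fibroblasts gave -0.97 for Fbn1 and -1.75 for Col4a5. Blood endothelium minus all fibroblasts gave 0.70 for Col4a1, -1.29 for Fn1, -0.90 for Col15a1, -2.22 for Col6a3, -4.11 for Col6a2, -2.94 for Col14a1 and -3.75 for Fbln1. In endothelium Col6a3, Col6a2, Col14a1 and Fbln1 had 50, 115, 50 and 167 counts on day 7 and 0 to 2 counts in each DSS library with no batch label. The fibroblast marker sum in endothelium was 39.8 to 428 CPM over the DSS libraries, highest on day 7, against 279 CPM in the uninjured library. The neutrophil marker sum in endothelium was also highest on day 7, at 27855 CPM, against 9.97 CPM in the uninjured library. The part of fibroblast or neutrophil RNA in these slopes was not tested.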

How the results depend on the processing

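No pairing between groups was possible because each group has 1 library and the labels give no replicate numbers. Slope differences between cell types were paired within libraries, with the library as a block. Of 336 recomputed counts of members, 262 stayed within 1.5 times the reported one. Of 555 recomputed slopes of the 35 called ones, 414 stayed called, 141 were no longer called and 0 changed sign. The cause of the moves was not tested. The recomputed counts below stand without the share of all genes under the same setting, so a move need not be particular to the members.

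Day trend calls were, with DESeq2, 9 in all fibroblasts, 16 in Adamdec1/Bmp4 fibroblasts and 2 in all blood endothelium; without a filter on low counts, 17 in Adamdec1/Bmp4 fibroblasts, 5 in all blood endothelium and 6 in its cells outside the venous subset; in the 6 DSS libraries with no batch label, 7 in all, 4 in Adamdec1/Bmp4 and 8 in Pi16/Pcolce2 fibroblasts; and with no batch term, 1 in all, 6 in Adamdec1/Bmp4 and 1 in Pi16/Pcolce2 fibroblasts. Endothelium outside the venous subset had 0 calls with no batch term, with stricter cell filters (at most 10% mitochondrial counts and at least 1000 counts a cell) and without the highest-count cells. Leaving out each DSS library gave 1 to 12 calls in all fibroblasts, 4 to 12 in Adamdec1/Bmp4, 1 to 9 in Pi16/Pcolce2, 0 to 2 in all blood endothelium and 0 to 1 outside the venous subset.

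Curve calls were 2 in all fibroblasts, 1 in mural cells and 1 in blood endothelium with DESeq2; 6 in mural cells, 4 in Adamdec1/Bmp4 and 1 in Pi16/Pcolce2 fibroblasts without a filter; 1 in Adamdec1/Bmp4 fibroblasts without the highest-count cells; and 1 in Pi16/Pcolce2 fibroblasts in the 6 libraries. Leaving out a library gave 0 to 1 in either named type.

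Slope differences of mural cells from fibroblasts numbered 0 with DESeq2, 0 in the 6 libraries, 0 with no batch term and 1 to 4 with a library left out. Those of blood endothelium numbered 2 with DESeq2, 12 without a filter, 2 in the 6 libraries and 4 to 14 with a library left out. Those between the named fibroblast types numbered 13 without a filter and 6 to 13 with a library left out.

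In the 6 libraries 25 members of Pi16/Pcolce2 fibroblasts lay to 1 side of uninjured. Il10-/- changes numbered 1 in all fibroblasts without the highest-count cells. At 1.5-fold they numbered 5 in all, 3 in Adamdec1/Bmp4 and 7 in Pi16/Pcolce2 fibroblasts and 7 in mural cells. At 10 counts or more they numbered 5 in mural cells and 1 in Adamdec1/Bmp4 fibroblasts.

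Stricter cell filters were not run for mural cells or for fibroblasts without a subtype name, and venous and lymphatic endothelium had too few libraries for a fit. Depth limits values set against the uninjured library, which held 26 mural, 43 blood endothelial, 39 lymphatic and 4 venous endothelial cells and 23 fibroblasts without a subtype name.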
